A study of Mus musculus with 6 samples.

Results

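The genes of antigen processing and presentation, the machinery that displays peptides and lipids to T cells, were described in haematopoietic stem cells (HSCs) of mice lacking the muscarinic acetylcholine receptor gene Chrm1 and of wild type mice. The list holds 42 genes chosen by name, with earlier results of these data known. It has class I heavy chains and their light chain, class I-like molecules, the immunoproteasome, and the peptide transporter and its loading complex. It also has class II chains with their assembly factors, endosomal proteases and the regulators of both classes. The rest are 2 costimulatory ligands and H2-Ke6, an enzyme gene of the same chromosomal region. Of the 42, 39 had an array feature of their own among the 22180 genes named on the array. H2-D1, H2-Q7 and Cd74 were read only by features shared with other genes, and no value is given for them.

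Chrm1-/- mice of the C57Bl/6 strain gave 3 arrays of HSCs, and these were compared with 3 arrays of HSCs from wild type (WT) mice of that strain. All cells came from the bone marrow of unchallenged animals and were sorted as negative for lineage markers and Flt3 and positive for Sca1 and cKit. The labels give neither the sex and age of the mice, nor how Chrm1 was disrupted, nor whether each array is a separate animal or a pool, so p-values cover the spread among these 6 arrays alone, part or all of which may be technical.

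Class I molecules are carried by nearly all nucleated cells. Proteasomes cut cytosolic proteins into peptides, the TAP transporter moves these into the endoplasmic reticulum, and a loading complex fits them to a heavy chain paired with B2m. Class II molecules are typical of B cells, dendritic cells and macrophages, and mouse blood stem and progenitor cells can carry them too. They travel with the invariant chain to endosomes, where proteases trim that chain and H2-DM exchanges its remnant for peptide. NLRC5 drives class I genes and CIITA drives class II genes, both through a complex of RFX and NF-Y proteins that sits on the X and Y boxes of the promoters.

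The X and Y boxes can be seen in the class II promoters. These stretches end shortly before the annotated start and are shown because they are the part of the promoter that the regulators on the list act through. They are from RefSeq on GRCm38.p6, each 77 bases long and aligned on the Y box letters. Capitals mark the Y box letters TGATTGG and, where present, the letters AACNNATGA of the X box. H2-Aa lies at chr17:34287852-34287928 on the minus strand. H2-Eb1 lies at chr17:34305751-34305827, H2-DMb1 at chr17:34153073-34153149, H2-DMb2 at chr17:34145102-34145178, H2-Oa at chr17:34092279-34092355 and H2-Ob at chr17:34238791-34238867, on the plus strand.
H2-Aa: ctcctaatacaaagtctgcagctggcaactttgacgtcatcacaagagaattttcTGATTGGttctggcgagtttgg
H2-Eb1: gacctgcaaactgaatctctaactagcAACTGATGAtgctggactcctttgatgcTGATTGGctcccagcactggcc
H2-DMb1: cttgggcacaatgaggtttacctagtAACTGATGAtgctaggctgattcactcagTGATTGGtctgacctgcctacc
H2-DMb2: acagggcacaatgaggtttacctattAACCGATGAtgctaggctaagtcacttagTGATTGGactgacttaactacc
H2-Oa: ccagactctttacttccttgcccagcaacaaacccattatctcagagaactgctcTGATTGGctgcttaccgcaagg
H2-Ob: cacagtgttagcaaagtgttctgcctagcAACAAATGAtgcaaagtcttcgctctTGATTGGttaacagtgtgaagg

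Both strands of windows running from 250 bases before to 50 bases after each annotated start were searched. The Y box letters were in 6 of the 7 class II chain and assembly genes with a window, the exception being H2-DMa, and in 14 of 32 list genes with one. They were in 9.0% of all 27025 genes with a window. The matches of the 6 class II genes and of Psmb9 were on the strand of the gene. Those of H2-K1, H2-D1, H2-Q7, H2-T23, Tap1, Canx and Rfx5 were on the opposite strand. The X box letters, chosen after the stretches shown had been read, were in 4 of the 7 class II genes and in 3.28% of all genes. The distance between the marked letters was 19 bases in H2-Eb1, 20 in H2-DMb1 and H2-DMb2, and 17 in H2-Ob. The letters TTTCNNTTT, part of the interferon response element and a shortened form of those searched first, were in 10 of the 32 windows, among them those of H2-T23, B2m, Psme1, Erap1 and Ctss, and in 12.1% of all genes. H2-Ab1, Ciita, Nlrc5 and Rfxap are among the 10 list genes without a window in the table used. These matches are descriptions of sequence and say nothing about binding in these cells.

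**Figure D1:**
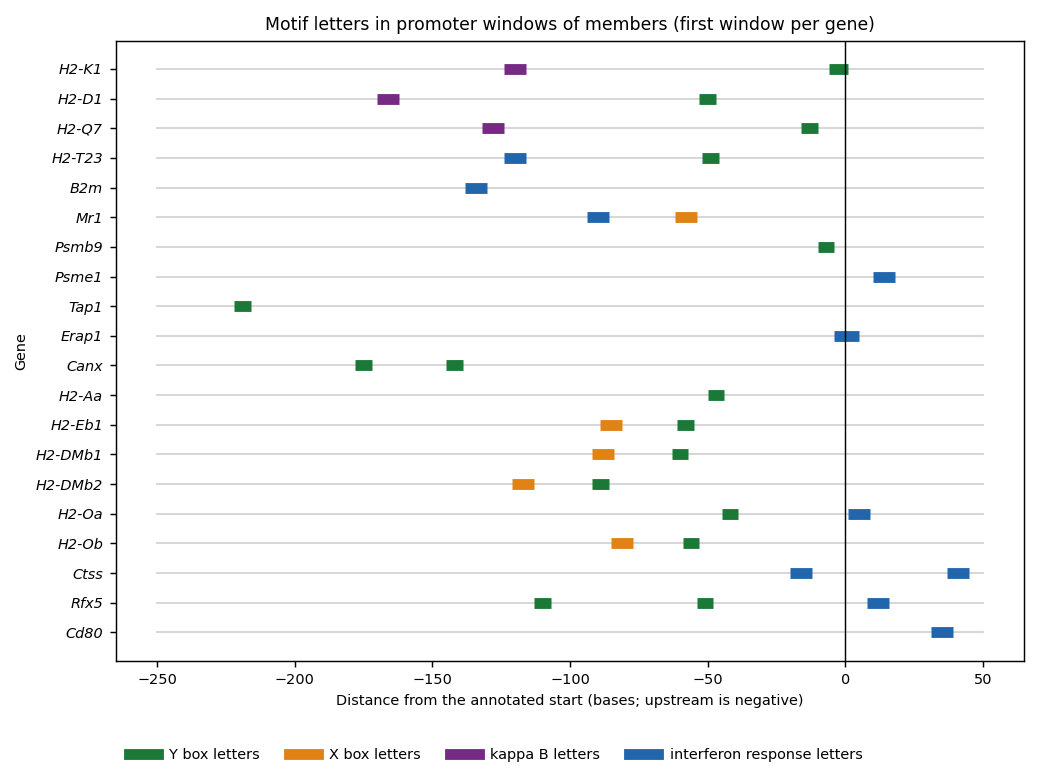
Positions of motif letters, in bases from the annotated start, in the promoter windows of list genes that hold at least 1 of them (the first window where a gene has several). Green bars are Y box, orange X box, purple kappa B and blue interferon response letters, on either strand. In H2-Eb1, H2-DMb1, H2-DMb2 and H2-Ob an X box bar lies upstream of a Y box bar.

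The deposited values are log2 signals, so a difference of 1 is a doubling of signal. Array medians ran from 6.49 to 6.57, correlations between arrays from 0.917 to 0.933, and the number of arrays limits the precision. Differences are Chrm1-/- minus WT, tested over the 11094 genes with a mean signal of at least 6.77, the median of all genes, and the median standard error (SE) was 0.17. Chrm1 itself gave 8.16, 7.52 and 7.58 on the Chrm1-/- arrays and 7.45, 7.44 and 7.67 on the WT arrays. The sources used here do not say which exons its feature covers or which were disrupted, so its level is no check of the labels. Kit and Cd34, genes of stem and progenitor cells, had signals of 10.79 to 11.37 on the Chrm1-/- arrays and 10.85 to 11.29 on the WT arrays. The Flt3 transcript, whose protein was a negative marker in the sort, ran from 9.95 to 10.29 on the Chrm1-/- arrays and from 9.87 to 10.09 on the WT arrays, far above the filter in both groups. Of 14 tested stem cell and sort markers 6 had higher and 7 lower means in Chrm1-/-. The stem cell surface receptor Procr had 8.16, 8.19 and 8.24 on the Chrm1-/- arrays and 8.40, 8.45 and 8.50 on the WT arrays (unadjusted p = 0.0393 and adjusted p = 0.996 in limma, n = 3 each).

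No antigen presentation gene differed between the genotypes after adjustment. Of the 39 genes, 36 had enough signal to be tested and 0 passed an adjusted p of 0.05 in limma, where 0% of all tested genes passed, and each had an adjusted p of 0.996. At an unadjusted p under 0.05 there was 1 list gene, H2-Q10, lower in Chrm1-/-, where 2.99% of tested genes met that criterion, 1.60% being lower and 1.40% higher. The mean signal was higher in Chrm1-/- for 22 of the 36 and lower for 14, against 50.0% and 49.2% of all tested genes. The median difference was 0.04 against 0.00 over all. Of the 36, H2-DMb2 and Rfx5 passed the filter with WT means below it, 6.11 and 6.73. Without the filter 24 of the 39 were higher and 15 lower, against 11705 and 10263 of all 22180 genes. With a stricter filter, at the 75th percentile of signal, 10 of 22 tested list genes were higher. The 95% interval lay within 1.5-fold either way for 18 of the 36. The largest SE, 0.74, belonged to H2-DMb2 and the smallest, 0.09, to Psme1.

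**Figure D2:**
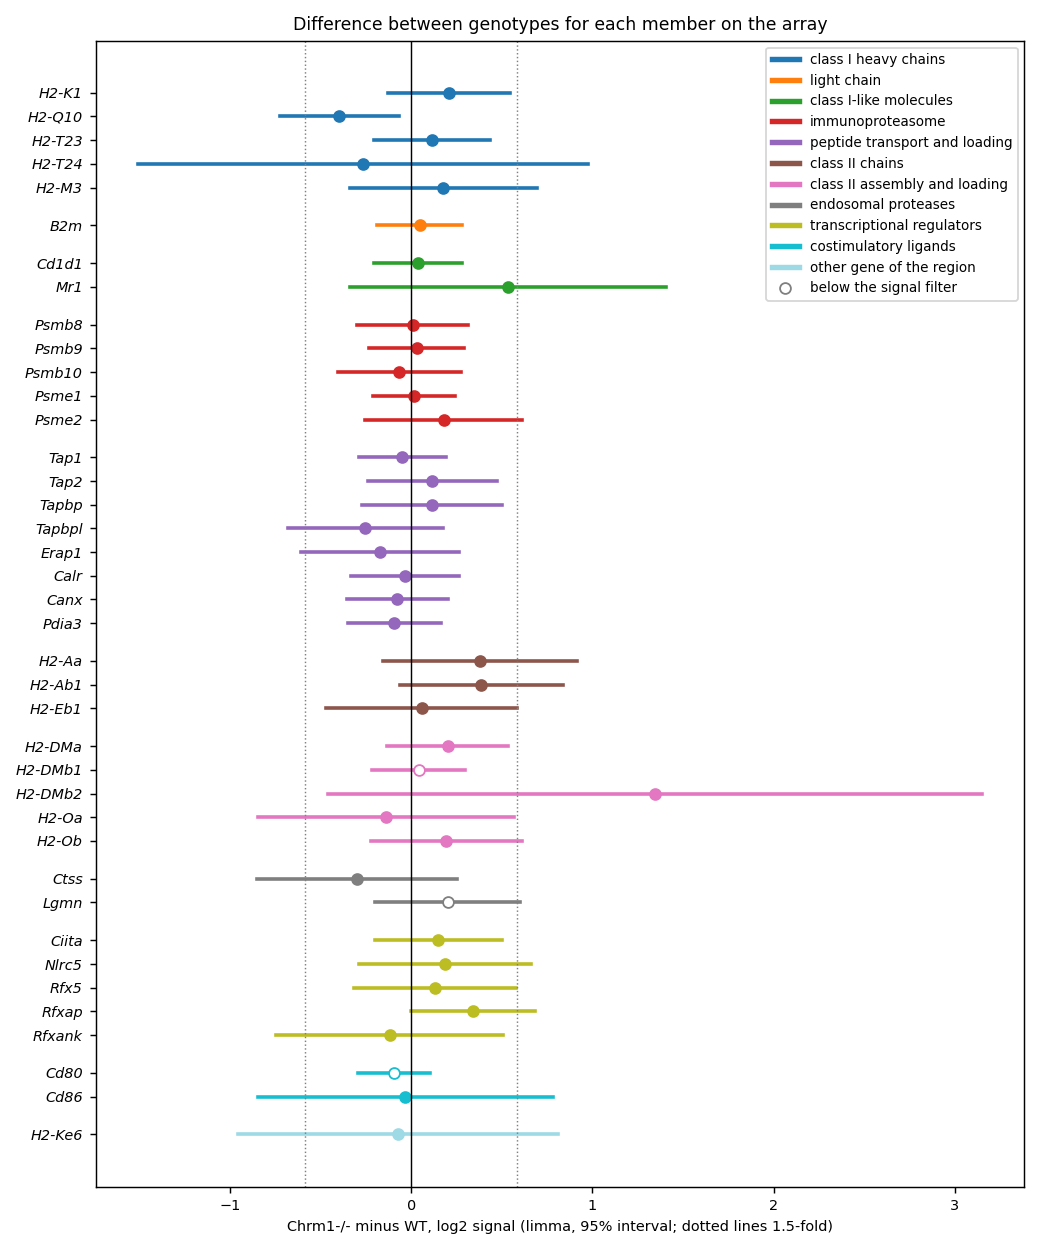
Difference in log2 signal, Chrm1-/- minus WT, for the 39 genes, grouped by role. Points are estimates and bars 95% intervals from limma, dotted lines mark 1.5-fold and open points are the 3 genes below the signal filter; the bar of H2-Q10 is the one tested gene's bar that does not hold 0.

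The classical class I heavy chain H2-K1, which displays peptides to cytotoxic T cells, had signals of 11.23, 11.29 and 11.60 on the Chrm1-/- arrays and 11.28, 11.14 and 11.08 on the WT arrays. The groups overlapped, with Chrm1-/- replicate 3 above the rest, and the difference was 0.21 ± 0.14 (SE; 95% interval -0.13 to 0.54). H2-T23 encodes Qa-1, a non-classical molecule read by inhibitory receptors of natural killer cells. It averaged 9.28 ± 0.06 in Chrm1-/- and 9.17 ± 0.19 in WT (SD, n = 3 each), a difference of 0.11 ± 0.13 (SE). H2-M3, which presents bacterial peptides that begin with formylmethionine, differed by 0.18 ± 0.21 (SE). H2-T24, a further non-classical heavy chain, had 9.21, 7.27 and 7.59 on the Chrm1-/- arrays and 7.99, 8.27 and 8.61 on the WT arrays. Its Chrm1-/- arrays held both the highest and the lowest of the 6 values, and the difference was -0.27 ± 0.51 (SE; 95% interval -1.51 to 0.98). It was -0.86 without Chrm1-/- replicate 1, with an unadjusted p of 0.0131 in limma (n = 2 Chrm1-/- and 3 WT arrays), and 0.11 without Chrm1-/- replicate 2.

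H2-Q10, a heavy chain gene whose product is secreted and best known from liver, was the one list gene with an unadjusted p under 0.05. Its signals were 9.17, 9.09 and 9.30 on the Chrm1-/- arrays and 9.51, 9.79 and 9.45 on the WT arrays, so all Chrm1-/- arrays lay below all WT arrays. Groups were separated in this direction for 2.97% of all tested genes. The difference was -0.40 ± 0.13 (SE; unadjusted p = 0.0247 and adjusted p = 0.996 in limma, n = 3 each). A second H2-Q10 feature of lower signal did not share it, with 7.07, 7.26 and 7.22 on the Chrm1-/- arrays and 7.07, 7.22 and 7.26 on the WT arrays. Its group means were equal at 7.18 and 7.18. With the mean of both features the difference was -0.20, and no list gene then had an unadjusted p under 0.05 in limma. Class I heavy chain genes are close copies of one another, and signal from one gene on the feature of another cannot be told apart here.

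The promoter of H2-Q10 differs from those of the classical genes at the kappa B site, the element through which NF-kappa B acts on class I genes, and the stretches are shown for that difference. They are from RefSeq on GRCm38.p6, each 40 bases long, with the bases at the place of the letters GGGATTCCC of that site in capitals. H2-K1 lies at chr17:34000438-34000477 on the minus strand, H2-D1 at chr17:35262904-35262943 and H2-Q10 at chr17:35469894-35469933 on the plus strand.
H2-K1: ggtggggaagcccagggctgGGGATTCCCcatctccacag
H2-D1: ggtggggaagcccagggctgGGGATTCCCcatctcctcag
H2-Q10: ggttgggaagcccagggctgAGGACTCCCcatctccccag

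Counting from 1 at the 5′ end of the stretch, H2-Q10 differed from H2-K1 by G4T, G21A, T25C and A37C, and 36 of 40 bases were the same. H2-D1 differed from H2-K1 by A37T alone. The letters GGGATTCCC, also shortened after a first search, were in the windows of H2-K1, H2-D1 and H2-Q7 and in 0.414% of all genes.

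A further list, outside the 42, was also chosen with earlier results of these data known. It held other class I and class I-like genes and 1 class II chain gene, H2-Eb2. Of its 17 genes on the array 10, H2-Eb2 among them, were below the signal filter. All 7 that were tested had a higher mean in Chrm1-/-, as did 50.0% of all tested genes. The median of the 7 differences was 0.25 against 0.00 over all tested genes. Of the 7, H2-Q1 passed the filter with a WT mean of 6.73, below it. Over all 17, 14 had higher and 3 lower means, and the median was 0.15. H2-T10, a non-classical gene of the T region whose product is bound by some gamma delta T cells, had 9.39, 9.88 and 10.11 on the Chrm1-/- arrays and 8.73, 9.30 and 8.96 on the WT arrays. All its Chrm1-/- arrays lay above all WT arrays, as for 2.81% of tested genes. Its difference of 0.80 ± 0.24 (SE) had an unadjusted p of 0.0141 and an adjusted p of 0.996 in limma (n = 3 each). H2-Q5, of the same region as H2-Q10, differed by 0.57 ± 0.26 (SE) with overlapping groups. The other 5 tested genes of this list, Fcgrt, H2-M5, H2-Q1, H2-Q4 and Ulbp1, had differences between 0.01 and 0.48.

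B2m, the light chain that every class I heavy chain needs, had 12.97, 12.92 and 12.97 on the Chrm1-/- arrays and 12.87, 12.96 and 12.89 on the WT arrays. The values overlapped within a narrow span, and the difference of 0.05 ± 0.10 (SE) had a 95% interval of -0.19 to 0.28. Cd1d1, which presents lipids to natural killer T cells, was as steady at 7.08, 6.97 and 6.98 on the Chrm1-/- arrays and 7.01, 7.0 and 6.91 on the WT arrays. Mr1, which presents vitamin B metabolites to mucosal-associated T cells, varied widely, with 8.91, 7.64 and 8.10 on the Chrm1-/- arrays and 7.95, 7.85 and 7.25 on the WT arrays. Its difference of 0.53 ± 0.36 (SE) leaned on Chrm1-/- replicate 1, and without that array it was 0.19.

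**Figure D3:**
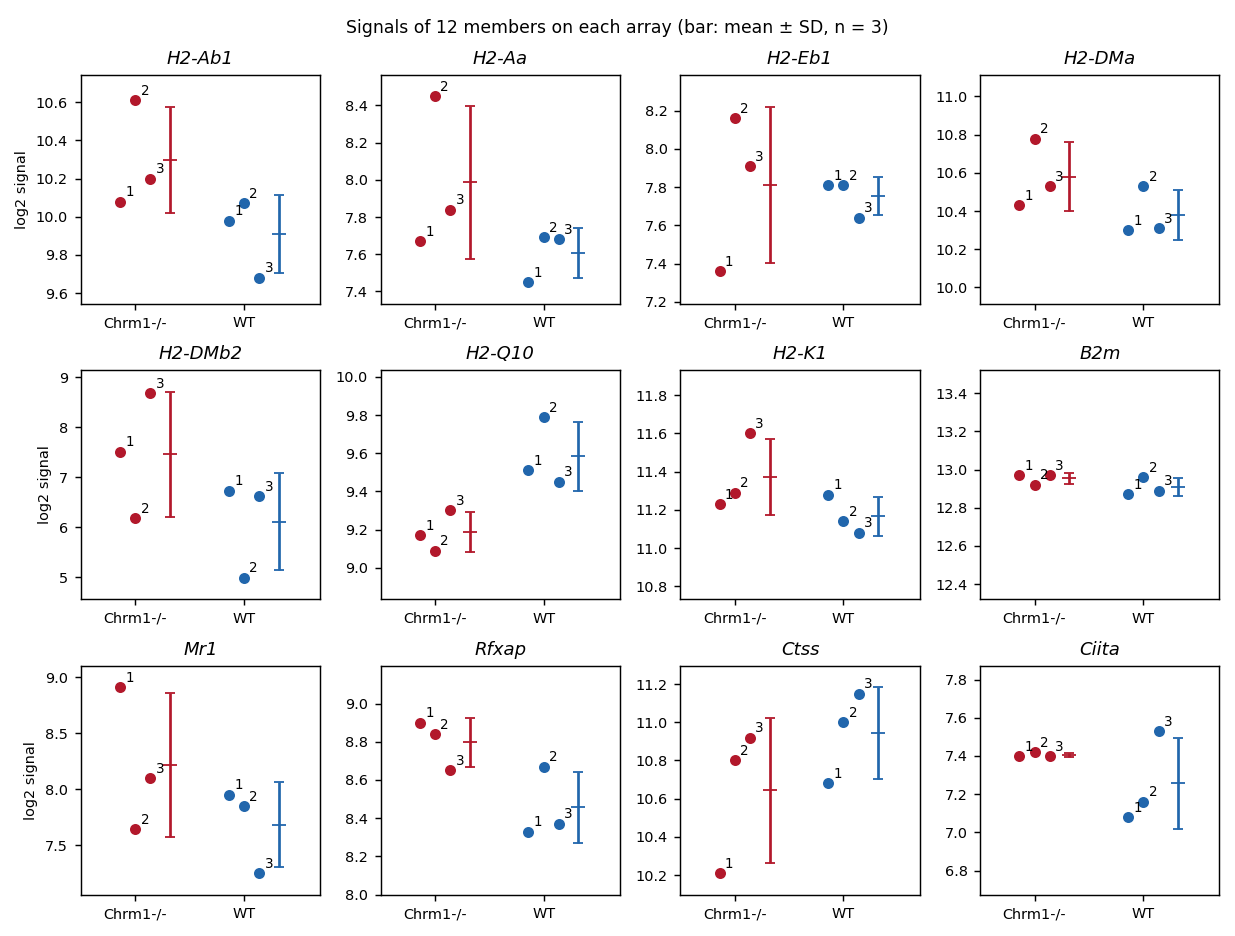
Log2 signals of 12 genes on each array, Chrm1-/- in red left of WT in blue, with replicate numbers at the points and bars for the mean ± SD (n = 3); each panel has its own axis. The 3 class II chain genes H2-Ab1, H2-Aa and H2-Eb1 have their highest value on Chrm1-/- replicate 2, and only H2-Ab1 and H2-Q10 show groups that do not overlap.

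The immunoproteasome genes differed little between the genotypes. Psmb8, Psmb9 and Psmb10 encode the catalytic subunits that replace the constitutive ones, and Psme1 and Psme2 the PA28 activator. Psmb9 had 11.52, 11.62 and 11.72 on the Chrm1-/- arrays and 11.66, 11.52 and 11.59 on the WT arrays, a difference of 0.03 ± 0.11 (SE). Psme1 had 9.72, 9.74 and 9.77 on the Chrm1-/- arrays and 9.73, 9.73 and 9.72 on the WT arrays. Differences of the 5 genes lay between -0.07 for Psmb10 and 0.18 for Psme2, with a median of 0.02. Constitutive proteasome subunits and assembly factors, 17 tested, had 10 higher and 7 lower means, a median of 0.01 and 0 genes at an unadjusted p under 0.05. Psmb1 of that list differed by -0.25 ± 0.16 (SE) and the assembly chaperone Psmg1 by 0.19 ± 0.14 (SE).

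Of the 8 genes of peptide transport and loading, 6 had lower and 2 had higher means in Chrm1-/-, and the median difference was -0.06. Tap1, a TAP subunit, had 8.89, 8.96 and 9.01 on the Chrm1-/- arrays and 9.01, 8.96 and 9.04 on the WT arrays, with a difference of -0.05 ± 0.10 (SE). Its partner Tap2 differed by 0.12 ± 0.15 (SE). Tapasin, encoded by Tapbp, which bridges TAP and the heavy chain, differed by 0.12 ± 0.16 (SE) on its main feature and by 0.17 on a second. The related editor Tapbpl differed by -0.25 ± 0.18 (SE), with WT replicate 3 at 9.38 above the other arrays, which lay between 8.67 and 8.88, and the difference was -0.08 without it. The aminopeptidase Erap1, which trims peptides to length, differed by -0.17 ± 0.18 (SE), with WT replicate 1 highest at 10.31. The chaperones Calr and Canx and the oxidoreductase Pdia3, shared with general protein folding, differed by -0.04, -0.08 and -0.09, each with an SE of 0.11 or 0.12. Other chaperone and processing genes, 14 tested, had 5 higher and 9 lower means with a median of -0.04. Of these Pdia6 differed by -0.23 ± 0.12 (SE) and Uggt1 by -0.28 ± 0.19 (SE).

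Class II chain genes had higher means in Chrm1-/-, by amounts that 3 arrays a group did not resolve. H2-Ab1, the beta chain of I-A, had 10.08, 10.61 and 10.20 on the Chrm1-/- arrays and 9.98, 10.07 and 9.68 on the WT arrays. All Chrm1-/- values lay above all WT values, though Chrm1-/- replicate 1 exceeded WT replicate 2 by only the second decimal. H2-Ab1 was 1 of the 36 tested list genes so separated, where 2.81% of all tested genes were. The difference was 0.39 ± 0.18 (SE; 95% interval -0.06 to 0.84; unadjusted p = 0.0800 in limma, n = 3 each). H2-Aa, the alpha chain that pairs with it, had 7.67, 8.45 and 7.84 on the Chrm1-/- arrays and 7.45, 7.69 and 7.68 on the WT arrays. Its groups overlapped, Chrm1-/- replicate 2 stood above the others, and the difference was 0.38 ± 0.22 (SE).

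H2-Eb1, the beta chain of I-E, had 7.36, 8.16 and 7.91 on the Chrm1-/- arrays and 7.81, 7.81 and 7.64 on the WT arrays. C57BL/6 mice display no I-E because their alpha chain gene is defective. Chrm1-/- arrays held both the highest and the lowest H2-Eb1 value, and the difference was 0.06 ± 0.22 (SE). The 3 chain genes thus shared Chrm1-/- replicate 2 as their highest array, and their mean signal, less each gene's mean over 6 arrays, was -0.19, 0.51 and 0.09 on the Chrm1-/- arrays and -0.15, -0.04 and -0.23 on the WT arrays. Without Chrm1-/- replicate 2 the differences were 0.23 for H2-Ab1, 0.15 for H2-Aa and -0.12 for H2-Eb1. The arrays read pooled cells, in which a change in the number of cells of a type and a change in RNA per cell cannot be told apart.

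Markers of cells that carry class II, and of T and natural killer cells, were read on the same arrays. Of 11 B cell markers 2 were above the signal filter, and the mean of the 11 was 6.38, 6.23 and 6.22 on the Chrm1-/- arrays and 6.16, 6.22 and 6.48 on the WT arrays. Among them Ms4a1 and Ebf1 lay below the filter on all arrays. Cd79b, a chain of the B cell receptor complex, had 9.11, 8.55 and 8.67 on the Chrm1-/- arrays and 8.55, 8.32 and 9.26 on the WT arrays. Its highest value was on WT replicate 3 and the next on Chrm1-/- replicate 1. Cd79a, whose mean was below the filter, was highest on the same arrays, at 7.77 and 7.25, and ran from 6.05 to 6.40 on the others. Pax5, the other marker above the filter, ran from 7.40 to 7.43 on the Chrm1-/- arrays and from 7.21 to 7.52 on the WT arrays. Of 16 dendritic cell and macrophage markers 5 were above the filter, and the mean of all 16 ran from 6.79 to 6.92 on the Chrm1-/- arrays and from 6.79 to 7.04 on the WT arrays. Itgax and Xcr1, which mark dendritic cells, and Csf1r, the macrophage growth factor receptor, lay below the filter on all arrays. Cd209a, a dendritic cell lectin, had 7.87, 9.07 and 8.53 on the Chrm1-/- arrays and 8.97, 8.36 and 8.03 on the WT arrays. Its highest value, like that of the class II chains, was on Chrm1-/- replicate 2. Its next highest was on WT replicate 1, where H2-Aa had 7.45, H2-Ab1 9.98 and H2-Eb1 7.81. H2-Aa was lowest on that array, H2-Ab1 on WT replicate 3 and H2-Eb1 on Chrm1-/- replicate 1. Lyz2, the lysozyme of macrophages and granulocytes, ran from 9.30 to 9.58 on the Chrm1-/- arrays and from 9.32 to 9.66 on the WT arrays. The complement genes C1qa and C1qb, made by macrophages, ran from 6.77 to 7.77 on the Chrm1-/- arrays and from 6.93 to 8.14 on the WT arrays. Lyz2 and C1qa were highest on WT replicate 3 and C1qb on Chrm1-/- replicate 1. Cd68, a macrophage lysosomal protein, had 8.47, 8.16 and 8.19 on the Chrm1-/- arrays and 8.79, 9.0 and 10.25 on the WT arrays. All its Chrm1-/- values lay below all WT values, as for 2.97% of tested genes, with WT replicate 3 highest. The difference was -1.07 ± 0.39 (SE; unadjusted p = 0.0309 and adjusted p = 0.996 in limma, n = 3 each), and -0.62 without WT replicate 3. The mean of 10 T and natural killer cell markers, 2 of them above the filter, ran from 6.64 to 6.92 on the Chrm1-/- arrays and from 6.57 to 6.84 on the WT arrays. The part of these cells in the class II signals was not tested.

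Among class II assembly genes the differences were of both signs and of uneven precision. H2-DMa, the alpha chain of the peptide exchange factor, had 10.43, 10.78 and 10.53 on the Chrm1-/- arrays and 10.30, 10.53 and 10.31 on the WT arrays. Its highest array was again Chrm1-/- replicate 2, and the difference was 0.20 ± 0.14 (SE). Of the beta chain genes that pair with it, H2-DMb1 lay below the filter at 6.27, 6.01 and 6.22 on the Chrm1-/- arrays and 6.22, 6.11 and 6.05 on the WT arrays. H2-DMb2 had 7.51, 6.18 and 8.69 on the Chrm1-/- arrays and 6.73, 4.99 and 6.62 on the WT arrays. This was the one tested gene of the 36 with a difference of at least 1.5-fold, 1.35 ± 0.74 (SE), where 4.31% of tested genes reached that size. Its groups overlapped and its interval ran from -0.46 to 3.15. The difference was 1.99 without Chrm1-/- replicate 2 and 0.78 without WT replicate 2. H2-DMb1 and H2-DMb2 are near copies, and signal from both may reach either feature.

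H2-Oa and H2-Ob encode H2-O, which holds H2-DM in check. H2-Oa differed by -0.14 ± 0.29 (SE) and H2-Ob by 0.19 ± 0.17 (SE), both with overlapping groups. Over chains and assembly factors together, 6 of 7 tested genes had higher means and the median difference was 0.20. H2-DMb2, which passed the filter only through Chrm1-/-, is 1 of the 6. Without the filter 7 of 8 had higher means, with a median of 0.20. Over the class I route of heavy and light chains, immunoproteasome, transport and loading, 10 of 19 had higher means and the median was 0.01. The difference between these groups of genes was not tested.

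**Figure D4:**
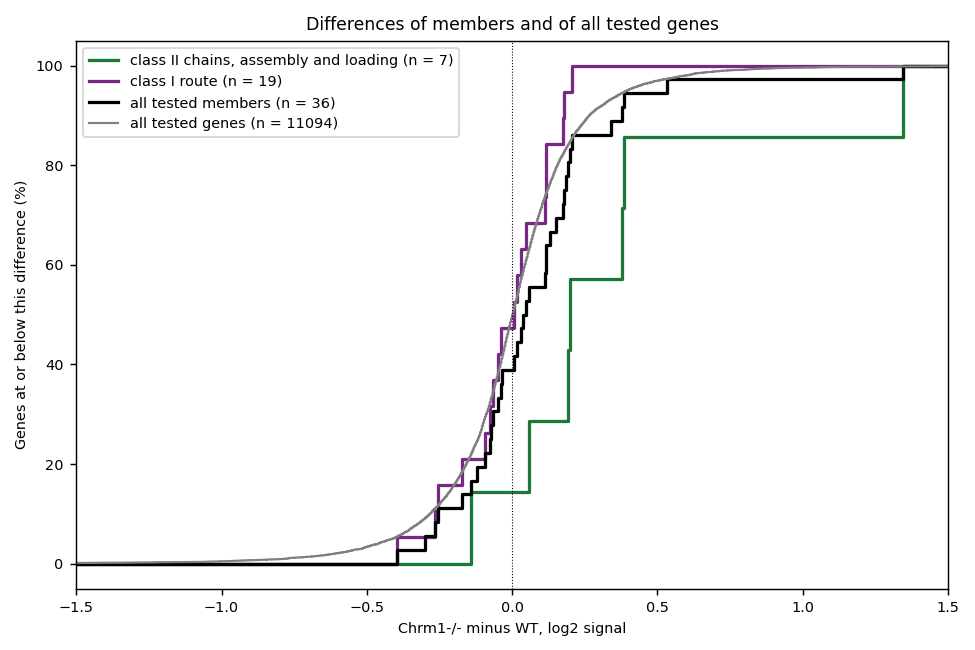
Cumulative share of genes, in percent, at or below each difference in log2 signal, Chrm1-/- minus WT. The class I route follows the curve of all 11094 tested genes, while 6 of the 7 class II genes lie above 0 and H2-Oa below it; 1 step of the class II curve is 1 gene.

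Ctss, cathepsin S, removes the invariant chain from class II molecules. It had 10.21, 10.80 and 10.92 on the Chrm1-/- arrays and 10.68, 11.00 and 11.15 on the WT arrays. The groups overlapped, Chrm1-/- replicate 1 was lowest, and the difference was -0.30 ± 0.23 (SE), or -0.08 without that array. The asparaginyl endopeptidase Lgmn lay below the filter, with means of 6.43 in Chrm1-/- and 6.23 in WT. Other endosomal processing genes, 14 tested, had 5 higher and 9 lower means and a median of -0.02. Among them the cathepsin Ctsz differed by -0.36 ± 0.19 (SE) and Sppl2a, a protease of the last invariant chain fragment, by 0.19 ± 0.12 (SE).

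Of the 5 transcriptional regulators, 4 had higher means in Chrm1-/-, as did 50.0% of all tested genes, and the median difference was 0.15. Of the 4, Rfx5 passed the filter with a WT mean of 6.73, below it. Rfxap, a subunit of the RFX complex, had 8.90, 8.84 and 8.65 on the Chrm1-/- arrays and 8.33, 8.67 and 8.37 on the WT arrays. Chrm1-/- replicate 3 lay just below WT replicate 2, and the difference was 0.34 ± 0.14 (SE; unadjusted p = 0.0503 in limma, n = 3 each). The other subunits differed by 0.13 ± 0.18 (SE) for Rfx5 and -0.12 ± 0.26 (SE) for Rfxank. Ciita, the master activator of class II genes, had 7.40, 7.42 and 7.40 on the Chrm1-/- arrays and 7.08, 7.16 and 7.53 on the WT arrays. Its difference of 0.15 ± 0.14 (SE) was 0.29 without WT replicate 3, the highest of the 6 arrays. Nlrc5, its class I counterpart, differed by 0.19 ± 0.20 (SE). Of 19 other tested regulators and interferon gamma pathway genes, 9 had higher and 10 lower means. The NF-Y subunit Nfyb differed by -0.40 ± 0.21 (SE), and Rel, a subunit of NF-kappa B, by -0.57 ± 0.31 (SE).

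Cd80 and Cd86 supply the second signal that T cells need. Cd80 lay below the filter, at 5.23, 5.13 and 5.23 on the Chrm1-/- arrays and 5.23, 5.29 and 5.35 on the WT arrays. Cd86 had 7.69, 7.30 and 7.42 on the Chrm1-/- arrays and 6.86, 8.19 and 7.46 on the WT arrays. WT arrays held both its highest and its lowest value, and the difference was -0.03 ± 0.34 (SE). Of 10 other tested costimulatory and checkpoint ligands, 3 had higher and 7 lower means. Icam1 of these differed by -0.20 ± 0.13 (SE) and Tnfsf4 by 0.37 ± 0.27 (SE). H2-Ke6, a steroid dehydrogenase gene with no known part in presentation, had 9.93, 10.99 and 11.36 on the Chrm1-/- arrays and 11.01, 10.76 and 10.73 on the WT arrays, with Chrm1-/- arrays at both ends. Its difference was -0.07 ± 0.36 (SE).

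By position, 18 of the tested genes lie in the major histocompatibility complex on chromosome 17 and 18 elsewhere. Of those in the complex 13 had higher and 5 lower means, with a median difference of 0.12. Of those elsewhere 9 had higher and 9 lower means, with a median of -0.01. Over all tested genes 50.0% had higher and 49.2% lower means. H2-DMb2, among the 13, and Rfx5, among the 9 higher elsewhere, passed the filter with WT means below it. Other protein-coding genes between the outermost chromosome 17 members, 89 tested, had 50 higher and 37 lower means and a median of 0.02. These groups were not tested against one another.

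Array by array, the 36 tested genes did not move as a block. Chrm1-/- replicate 3 lay above the gene's own mean for 26 of the 36 and was the lowest array for 1. The other Chrm1-/- arrays lay above it for 16 and 17 genes, and the WT arrays for 15, 17 and 12. Over all tested genes the share above the gene's own mean was 46.4%, 51.8% and 51.0% on the Chrm1-/- arrays and 48.8%, 49.8% and 48.5% on the WT arrays. Genes with a range over 1 within either group were Cd86, H2-DMb2, H2-Ke6, H2-T24 and Mr1. Those with a range under 0.3 in both groups were B2m, Canx, Cd1d1, Pdia3, Psmb9, Psme1 and Tap1.

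**Figure D5:**
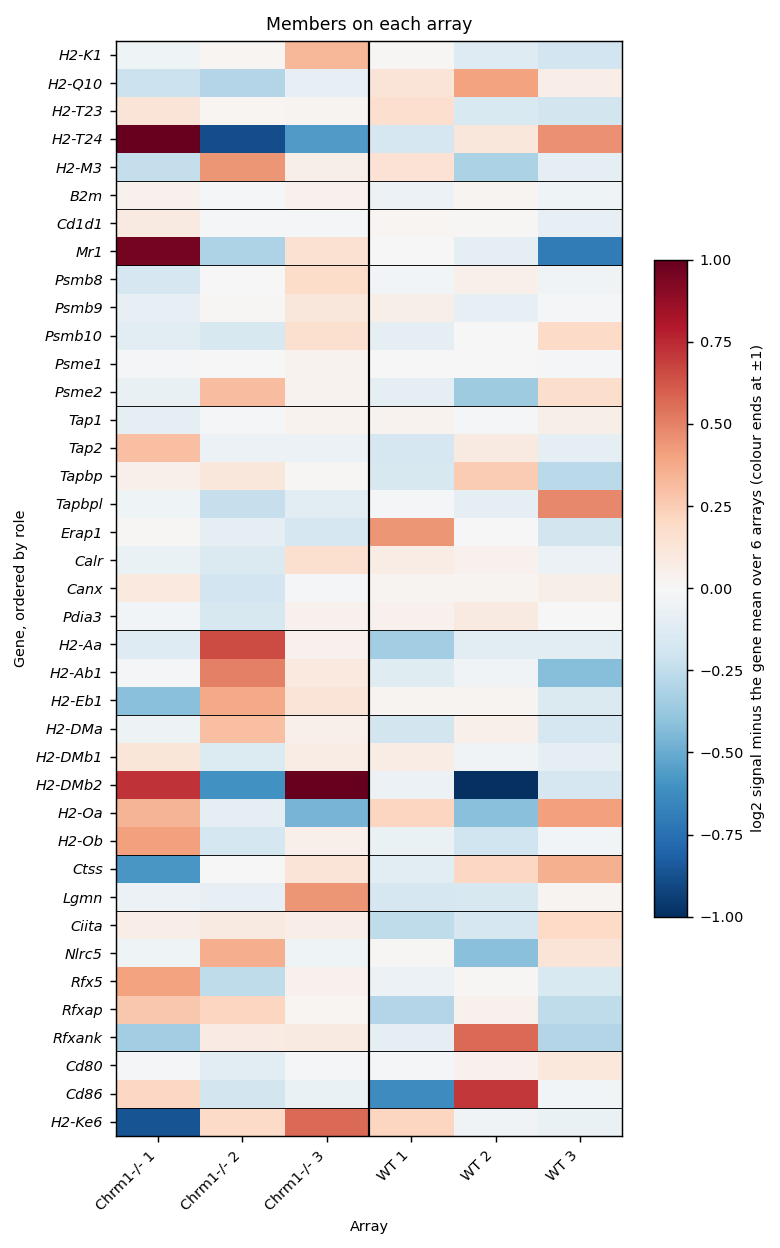
Log2 signal of the 39 genes on each array, less the gene's mean over 6 arrays, with Chrm1-/- columns left of WT columns and genes ordered by role; colour ends at 1 in either direction. The class II chains are highest on Chrm1-/- replicate 2, and H2-T24, Mr1, H2-DMb2 and H2-Ke6 have the strongest colours of either sign.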

How the data were processed

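HSCs of 2 genotypes were profiled on 6 arrays, 3 a group, grouped by title. Per the series design text, RNA from cells sorted into lysis buffer went through NuGEN amplification onto Affymetrix mouse gene ST arrays, which the authors processed in Affymetrix software; the sources used here do not give its version, summarization or normalization. The table names no scale. From their range (3.02 to 13.67), the deposited values were read as log2 signals and used without further normalization. Array background is not in the table, so detection could not be judged per feature.

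Of 41345 features, 23521 had 1 gene symbol in the platform annotation, 1814 several and 16010 none; only the first were used. For a gene with several, the feature of highest mean over 6 arrays was kept. Genes at or above the median signal were tested by a two-sided test in limma 3.58.1 (lmFit, eBayes; R 4.3.3), adjusted by Benjamini-Hochberg over all tested genes, at a threshold of 0.05. Differences of genes below the filter come from the fit without it. SEs are limma's moderated ones. The code was tested on simulated data. Over all tested genes replicate numbers showed no pairing of the arrays: correlations of same-numbered deviations were -0.03, 0.01 and -0.01. These correlations cannot show whether single genes were paired.

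All 42 genes and, from further gene lists, up to 2 tested genes of smallest p are named; Chrm1, Procr and other marker genes were added beside them. Members and lists were chosen with earlier results of these data known. Promoters are from a RefSeq table (GRCm38.p6), searched with Python 3.11.15; 32 of the 42 genes had an entry.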

Additional observations from a re-analysis of the deposited data

How the results depend on the processing

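No gene of the list passed the adjusted threshold under any of the 15 alternatives (filters, normalizations, mean of all features, a replicate block, array weights, other moderation, each array left out). At an unadjusted p under 0.05 in limma 1 list gene was lower and 0 were higher. The count of higher genes became 1 without a filter and with quantile normalization (Rfxap in both), and the count of lower genes became 0 with the mean of all features. Replicate numbers showed no pairing over all tested genes, which does not decide it for single genes. With the replicate block, 1 list gene was higher (H2-DMb2, unadjusted p = 0.00732 in limma) and 0 lower. The SE of H2-DMb2 was 0.28 with the block and 0.74 without it. For H2-Q10 the SE was 0.16 with the block and 0.13 without it, and the unadjusted p was 0.0662 with the block in limma. Leaving out 1 array gave 0 to 1 higher and 0 to 1 lower; H2-Q10 lost its unadjusted p under 0.05 without Chrm1-/- replicate 1 (where H2-T24 had one), Chrm1-/- replicate 2 or WT replicate 2. The higher gene was H2-DMb2 without Chrm1-/- replicate 2, Rfxap without Chrm1-/- replicate 3 or WT replicate 2, and Ciita without WT replicate 3. With the filter at the 75th percentile, 10 of 22 tested list genes had higher means and the median difference was -0.04. The lean to higher means, 22 of 36 at the main filter, was thus absent among these brighter genes. Over all genes, 1 was called without moderation, and 0 to 1 on leaving out 1 array.

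The sign changed in 1 of 313 fits of single list genes other than those with an array left out, H2-Ke6 with array weights (0.0038). With an array left out it changed in 20 of 213 fits, for 13 genes in all. The ranges were -0.35 to 0.31 for Cd86, -0.37 to 0.34 for H2-Ke6, -0.86 to 0.11 for H2-T24, -0.38 to 0.06 for H2-Oa, -0.29 to 0.14 for Rfxank, -0.12 to 0.28 for H2-Eb1, -0.0017 to 0.34 for H2-M3, -0.31 to 0.0033 for Erap1, -0.13 to 0.03 for Calr, -0.17 to 0.01 for Psmb10, -0.08 to 0.09 for Psmb8, -0.02 to 0.08 for Psmb9 and -0.0033 to 0.19 for Tap2. The cause was not tested.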
